A study of Rattus norvegicus with 11 samples.

Results

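Amino acid transporter genes were followed through the conversion of rat embryonic stem cells into hypoblast stem cells, which the labels call cHypoSCs. The genes were those whose rat symbol places them in the solute carrier families Slc1, Slc3, Slc6, Slc7, Slc36, Slc38 or Slc43 and whose array row is mapped to that symbol alone. They numbered 53 of the 14506 genes with 1 symbol, 7 in Slc1, 2 in Slc3, 15 in Slc6, 14 in Slc7, 4 in Slc36, 8 in Slc38 and 3 in Slc43, each with 1 row. All 11 Affymetrix Rat Gene 1.0 ST arrays carried RNA of DAc2, 1 line of rat embryonic stem cells, so every result describes that line. In the feeder arm the stem cells had grown in N2B27 medium on mouse embryonic fibroblasts with 3 µM CHIR99021, which inhibits the kinase GSK3, and 0.5 µM PD0325901, which inhibits the kinase MEK. In the feeder-free arm the same base medium was used on laminin, with CHIR99021 at 3 µM, PD0325901 raised to 2 µM, and human BMP4, a signalling protein, added at 5 ng/mL. Cells of both arms were then converted in a rat multipotent adult progenitor cell medium with LIF, EGF, PDGF and 2% serum. Days 0, 7, 17 and 32 were sampled, in the feeder arm with 1 array a day and in the feeder-free arm with 1 array on day 0 and 2 arrays on every later day. The labels do not say whether feeder cells remained during conversion, nor whether the feeder-free pairs came from separate cultures. Where the spread comes only from those pairs, p-values may thus measure technical spread alone.

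Cells take up amino acids through carriers that differ in the side chains they accept and in what drives them. Slc1 and Slc38 carriers use the sodium gradient to concentrate acidic or neutral amino acids, whereas most Slc7 light chains exchange amino acids after binding a glycoprotein heavy chain of the Slc3 family. Slc43 carriers let large neutral amino acids flow down their gradient, Slc36 carriers are coupled to protons, and the Slc6 family also moves neurotransmitters, taurine and creatine. Pluripotent stem cells are known for a high demand for threonine, glutamine and leucine, and the extraembryonic endoderm is a nutrient-transporting epithelium of the yolk sac.

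The deposited values are log2 expression, on which a difference of 1 is a 2-fold change. Levels of different genes come from different probes and are not set against each other. Replicate arrays of the feeder-free arm differed by a median of 0.08 to 0.13 over the 53 genes. The 8 hypoblast markers, Gata4, Gata6, Sox17, Pdgfra, Foxa2, Dab2, Lama1 and Sparc, averaged 10.22, 11.55, 14.23 and 14.27 at days 0, 7, 17 and 32 in the feeder arm. Their feeder-free means were 10.31 at day 0, 13.86 and 13.97 at day 7, 14.43 and 14.47 at day 17, and 14.37 and 14.29 at day 32. Both arms thus had high hypoblast markers by day 17, and the feeder arm was behind at day 7. The 6 pluripotency markers, Pou5f1, Nanog, Sox2, Esrrb, Klf2 and Klf4, averaged 12.69, 12.67, 10.44 and 10.46 in the feeder arm. Their feeder-free means were 13.55 at day 0, 11.51 and 11.64 at day 7, and 10.74 to 11.02 later. The mean does not stand for each of the 6. In the test of day 32 against day 0 described below, 4 were lower. Klf4 was higher, by 0.89, and Pou5f1, with a change of -0.57, did not pass. In bulk RNA a change in the share of a cell type and a change in RNA per cell cannot be told apart.

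Of the 53 transporter genes, 31 read above 8.09 on all 11 arrays, 15 on some and 7 on none. That bound is the 95th percentile of 1239 genes for olfactory and vomeronasal receptors, which serve as a background because these cells are not known to use them. The 7 genes under the bound throughout were Slc3a1, Slc6a14, Slc6a15, Slc6a18, Slc7a12, Slc7a13 and Slc36a3. Across the arrays, 28 genes ranged over at least 1 on the log2 scale, 17 of them over at least 2, while 25 stayed within 1. These ranges were not counted over all genes, so they do not set the transporter genes apart. The broadest range was 6.19, for Slc7a3.

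By day 32 a part of the transporter set had fallen and another part had risen. The heavy chain Slc3a2, several Slc7 light chains and the arginine carrier Slc7a3 fell, and the glutamate carrier Slc1a3, the neutral carrier Slc38a4, the noradrenaline carrier Slc6a2 and both Slc43a1 and Slc43a3 rose. In a limma fit with terms for day and culture, 11 of the 53 genes were higher and 9 lower at day 32 than at day 0, at an adjusted p under 0.05. The spread in that fit also takes in differences between the arms in their course over the 4 days. The 20 genes make 37.7%, beside 31% of all 14506 genes called in the same comparison. The median change over the 53 genes was 0.07, against 0.05 over all genes, while the median size of the change, whichever its sign, was 0.31 against 0.22. By family, 2 rose and 5 fell in Slc7, 3 rose and 1 fell in Slc6, 2 rose and 1 fell in Slc38, 1 rose and 1 fell in Slc1, 2 rose in Slc43, 1 rose in Slc36 and 1 fell in Slc3.

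**Figure D1:**
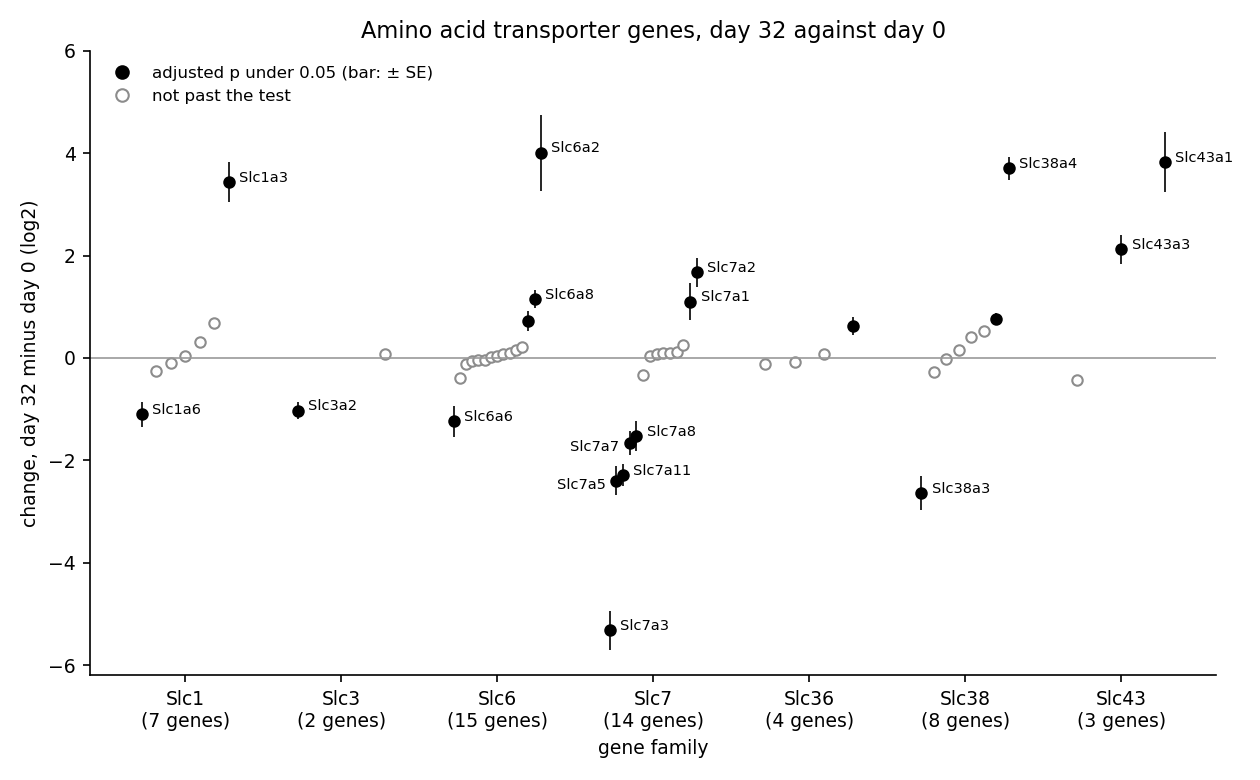
The log2 change at day 32 against day 0 for each of the 53 genes, grouped by family, with filled points and bars of ± SE for the 20 genes that passed the test. The filled points of the Slc7 family reach down to -5.32 for Slc7a3, while those of the Slc43 family lie above 0.

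The carriers of cationic amino acids moved in opposite directions. Slc7a3, a carrier of arginine and lysine, read 14.71, 14.34, 9.33 and 9.94 at days 0, 7, 17 and 32 in the feeder arm. Feeder-free arrays read 14.40 at day 0, 12.03 and 12.06 at day 7, 8.70 and 8.83 at day 17, and 8.66 and 8.52 at day 32. Every array of day 17 and day 32 lay far below every array of days 0 and 7. It had the widest change of the 53 genes (-5.32 ± 0.38, adjusted p = 7.82e-05, SE, n = 11 arrays in the fit). Slc7a1, the widely expressed carrier of arginine and lysine, read 13.36, 12.54, 14.45 and 14.53 over the 4 days in the feeder arm. Feeder-free arrays gave 13.65 for it at day 0, 14.45 and 14.55 at day 7, 14.85 and 14.98 at day 17, and 14.87 and 14.80 at day 32. All 3 arrays of day 32 were above both arrays of day 0, and the feeder array of day 7 was the lowest of all 11. Its change of 1.10 ± 0.36 passed narrowly (adjusted p = 0.0461) and was lost under 12 of 21 alternatives, with adjusted p-values of up to 0.334. Those include leaving out either array of day 0, any array of day 17 or any array of day 32, or replicate 1 of feeder-free day 7. The call was kept without the feeder array of day 7 and on the arrays of days 0, 17 and 32 alone. Within each arm, day 32 was 1.18 above day 0.

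Slc7a2, the remaining arginine and lysine carrier of the group, read 9.70, 9.38, 10.35 and 10.55 in the feeder arm. The feeder-free arm gave it 8.42 at day 0, 9.49 and 9.63 at day 7, 10.28 and 10.29 at day 17, and 10.78 on both arrays of day 32. All day 32 arrays exceeded both day 0 arrays, which were themselves far apart. The rise was 1.67 ± 0.29 (adjusted p = 0.0029), and 0.93 without the feeder-free array of day 0. Slc7a4, a relative with no settled substrate, stayed between 9.16 and 9.51 on all arrays.

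Promoter sequence is shown for the 3 transporter genes whose RefSeq promoter window holds TGATGNAA, the core of the amino acid response element through which ATF4 raises transcription when amino acids run short. RefSeq promoters of the assembly GRCr8, each of 300 bases, were matched for 45 of the 53 genes, and both strands were searched. The match is in capitals and each line runs 5′ to 3′ on the gene's strand.
Slc7a1: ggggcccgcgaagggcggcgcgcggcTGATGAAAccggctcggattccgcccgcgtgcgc
Slc38a1: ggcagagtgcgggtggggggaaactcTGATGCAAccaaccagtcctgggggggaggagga
Slc1a4: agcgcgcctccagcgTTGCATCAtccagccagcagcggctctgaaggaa
The stretches lie at chr12:11664432-11664491 (plus strand), chr7:129681510-129681569 (minus strand) and chr14:98761764-98761812 (minus strand). The match stands on the gene's own strand for Slc7a1 and Slc38a1, and on the opposite strand for Slc1a4. The 3 genes make 6.67% of the 45, while 3.98% of all 33469 promoters hold a match. None of the 8 genes with a promoter that fell by day 32 has one, and 1 of the 10 that rose does, Slc7a1. A match describes letters in this window and nothing more.

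Among the heterodimeric carriers, the heavy chain Slc3a2 and 4 light chains fell and none rose, beside 31% of all genes called at day 32 against day 0. The other heavy chain, Slc3a1, stayed under the background bound. Slc3a2, the heavy chain that brings the light chains to the cell surface, read 14.49, 14.25, 14.01 and 13.85 at days 0, 7, 17 and 32 in the feeder arm. The feeder-free readings were 14.47 at day 0, 13.48 and 13.59 at day 7, 13.41 and 13.54 at day 17, and 13.18 and 13.04 at day 32. Both arms ended below their start, the feeder arm by less (-1.03 ± 0.16 for the arms together, adjusted p = 0.0016). Slc7a5, the light chain that imports leucine and other large neutral amino acids, read 14.59, 14.17, 13.03 and 13.03 in the feeder arm. Its feeder-free values were 14.71 at day 0, 13.02 and 13.08 at day 7, 12.12 and 12.07 at day 17, and 11.81 and 11.47 at day 32. No array of day 32 reached the level of either day 0 array, and the change was -2.40 ± 0.28 (adjusted p = 0.000573).

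Slc7a11, the cystine and glutamate exchanger that feeds glutathione synthesis, read 9.81, 8.14, 7.43 and 6.95 in the feeder arm. Its feeder-free level was 8.67 at day 0, 7.06 and 7.21 at day 7, 7.02 and 7.18 at day 17, and 6.87 and 6.70 at day 32. It stood above the background bound on 3 arrays, both of day 0 and the feeder array of day 7, so its fall ended in the background range (-2.29 ± 0.22, adjusted p = 0.000298). Slc7a7, which exports arginine and lysine in exchange for neutral amino acids and sodium, read 11.31, 10.73, 10.38 and 9.93 in the feeder arm. Feeder-free arrays gave 11.58 at day 0, 9.73 and 9.93 at day 7, 10.06 and 9.92 at day 17, and 9.84 and 9.40 at day 32. The groups of day 32 and day 0 did not overlap (-1.66 ± 0.23, adjusted p = 0.00121).

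Slc7a8, a second exchanger of neutral amino acids, read 9.35, 8.42, 8.13 and 8.16 in the feeder arm. Feeder-free arrays held at 10.01 at day 0 and 9.74 and 9.83 at day 7, and then read 8.36 and 8.09 at day 17 and 8.14 and 8.42 at day 32. Its final arrays lay near the background bound (-1.53 ± 0.29, adjusted p = 0.00406). Slc7a6, a close relative of Slc7a7, was not called between day 32 and day 0. Its levels were 13.17, 12.81, 12.86 and 12.90 in the feeder arm. They were 12.63 at day 0, 11.50 and 11.56 at day 7, 12.21 and 12.36 at day 17, and 12.28 and 12.14 at day 32 in the feeder-free arm. The feeder-free arrays of day 7 were its lowest. Slc7a9 read above 8.52 on 1 array, the feeder array of day 7. The remaining chains were dim: Slc7a10 ran from 7.97 to 8.57 and Slc7a15 from 7.83 to 8.27, and Slc3a1, Slc7a12 and Slc7a13 stayed under the bound.

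The Slc43 family, whose first members carry leucine, phenylalanine and methionine without an exchange partner, held the opposite movement. Slc43a1 read 7.90, 8.07, 11.10 and 11 at days 0, 7, 17 and 32 in the feeder arm. Feeder-free arrays read 7.64 at day 0, 11.18 and 11.31 at day 7, 12.22 and 12.34 at day 17, and 12.34 and 12.17 at day 32. The gene started in the background range in both arms and remained there at day 7 in the feeder arm. It rose by 3.83 ± 0.59 (adjusted p = 0.0017). Slc43a3, a carrier of purine nucleobases, read 10.13, 10.65, 12.07 and 11.97 in the feeder arm. Its feeder-free values were 9.23 at day 0, 11.18 and 11.42 at day 7, 11.80 and 12.03 at day 17, and 11.78 and 11.61 at day 32. Every array of days 17 and 32 exceeded every array of days 0 and 7 (2.12 ± 0.28, adjusted p = 0.000948). Slc43a2, the closest relative of Slc43a1, had a change of -0.43 that missed the threshold, and its levels ran from 10.08 to 11.14.

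Of the 7 sodium-driven Slc1 carriers, 1 rose, 1 fell and 5 did not pass, a share near the 31% of all genes called. Slc1a3, which takes up glutamate and aspartate, read 8.27, 9.53, 11.68 and 11.74 in the feeder arm. In the feeder-free arm the readings were 8.18 at day 0, 11.25 and 11.47 at day 7, 12.04 and 11.97 at day 17, and 11.85 and 11.69 at day 32. Both day 0 arrays lay at the edge of the background range, and all day 32 arrays lay far above it (3.44 ± 0.39, adjusted p = 0.0005). Slc1a6, a glutamate carrier known from the cerebellum, read 10.12, 8.63, 8.4 and 8.47 in the feeder arm. It stood at 9.11 at day 0 and between 8.05 and 8.61 afterwards in the feeder-free arm. Its change of -1.10 ± 0.24 (adjusted p = 0.00756) was -0.70 without the feeder array of day 0.

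The neutral exchangers of this family did not pass between day 32 and day 0. Slc1a4, which exchanges alanine, serine and cysteine, read 12.23, 11.07, 12.62 and 12.82 in the feeder arm. Its feeder-free levels were 12.81 at day 0, 12.29 and 12.40 at day 7, 13.06 and 13.08 at day 17, and 12.99 on both arrays of day 32. The lowest of the 11 values was the feeder array of day 7. Slc1a5, the main glutamine exchanger of many dividing cells, read 12.18, 11.55, 11.78 and 12 in the feeder arm. It read 10.96 at day 0, 10.77 and 11.02 at day 7, 11.12 and 11.14 at day 17, and 10.83 and 10.66 at day 32 in the feeder-free arm. All 4 feeder arrays were above all 7 feeder-free arrays. Slc1a1, a carrier of glutamate and cysteine, ranged from 10.64 to 12.05, and Slc1a2 and Slc1a7, glutamate carriers of brain and retina, stayed near the background bound.

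The Slc38 carriers of glutamine and small neutral amino acids took 3 different courses. Slc38a4, a sodium-coupled carrier of alanine and other neutral amino acids known from placenta and liver, read 9.90, 12.97, 13.72 and 13.64 over the 4 days in the feeder arm. Feeder-free arrays gave 9.88 at day 0, 12.09 and 12.24 at day 7, 12.56 and 12.60 at day 17, and 13.46 and 13.40 at day 32. It climbed early in both arms and ended 3.70 ± 0.23 above day 0 (adjusted p = 3.91e-05). Slc38a3, which moves glutamine, histidine and asparagine, read 10.14, 12.42, 8.64 and 8.28 in the feeder arm. Its feeder-free values were 11.66 at day 0, 12.42 and 12.63 at day 7, 8.21 and 8.34 at day 17, and 8.28 and 8.33 at day 32. All 3 arrays of day 7 were the highest of the gene, and those of day 32 lay just over the background bound. The change between day 32 and day 0 was -2.64 ± 0.34 (adjusted p = 0.000795).

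Slc38a2, the adaptive carrier of alanine and glutamine that is raised when amino acids run short, changed less. It read 13.61, 13.89, 14.24 and 14.27 in the feeder arm. In the feeder-free arm it read 13.61 at day 0, 14.18 and 14.31 at day 7, 14.17 and 14.35 at day 17, and 14.49 and 14.43 at day 32. Both arms started alike and all later arrays were higher (0.77 ± 0.11, adjusted p = 0.00142). Slc38a1, its close relative, stayed between 13.79 and 14.32. Slc38a9, the lysosomal arginine sensor that signals to mTORC1, ran from 11.16 to 12.11, and Slc38a7, a lysosomal exporter of glutamine, from 11.34 to 12.32. Neither passed between day 32 and day 0, nor did Slc38a1, Slc38a5 or Slc38a6.

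Of the 15 Slc6 genes, 3 rose and 1 fell, a share near the 31% of all genes called. Slc6a2, the noradrenaline carrier, read 8.83, 9.65, 13.20 and 13.09 in the feeder arm. Feeder-free arrays read 8.27 at day 0, 12.36 and 12.44 at day 7, 12.57 and 12.76 at day 17, and 12.38 and 12.34 at day 32. The arrays of day 32 exceeded those of day 0 in each arm, by 4.26 in the feeder arm and 4.09 in the feeder-free arm. The fitted change of 4.01 ± 0.74 (adjusted p = 0.00375) had an adjusted p of 0.0515 without the feeder-free array of day 0. Slc6a8, the creatine carrier, read 12.31, 12.40, 13.36 and 13.47 in the feeder arm. It read 12.86 at day 0, 13.72 and 13.78 at day 7, 14.26 and 14.36 at day 17, and 14.12 and 14.06 at day 32 in the feeder-free arm. It rose within each arm (1.15 ± 0.17, adjusted p = 0.00152).

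Slc6a6, the taurine carrier, was higher in the feeder arm. Its levels were 11.40, 13.32, 11.07 and 10.51 in the feeder arm. They were 10.16 at day 0, 10.59 and 10.69 at day 7, 8.30 and 8.24 at day 17, and 8.59 and 8.4 at day 32 in the feeder-free arm. Both arms peaked at day 7, and each feeder array lay above the feeder-free arrays of its day. The change at day 32 against day 0 was -1.24 ± 0.30 (adjusted p = 0.0141), but -0.56 with an adjusted p of 0.167 without the feeder-free array of day 0, and the call was also lost without the feeder array of day 32. Slc6a9, the glycine carrier, read 11.86, 10.70, 11.66 and 11.88 in the feeder arm. Its feeder-free readings were 11.86 at day 0, 11.58 and 11.50 at day 7, 11.88 and 11.82 at day 17, and 11.87 and 11.79 at day 32. The feeder array of day 7 was again the lowest, and day 32 differed from day 0 by 0.01 in the feeder arm and -0.03 in the feeder-free arm.

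The other Slc6 genes were mostly dim. Slc6a4, the serotonin carrier, ran from 8.56 to 10.03, its highest values on the feeder-free arrays of day 7, and was not called. Slc6a3, Slc6a5, Slc6a7, Slc6a11, Slc6a13 and Slc6a19, for dopamine, glycine, proline, GABA and neutral amino acids, never exceeded 8.46 and were on both sides of the bound.

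The Slc6a17 call, of a vesicular carrier of neutral amino acids, rested on the feeder-free day 0 array. That array read 9.17 and the others 10.01 to 10.37. The change of 0.72 ± 0.20 (adjusted p = 0.0215) was 0.27 without it, and the call was also lost without either feeder-free array of day 32. Slc36a4, a carrier of proline and tryptophan, rose by 0.62 ± 0.17 (adjusted p = 0.0212), with 0.34 and no call without the same array. Its call was also lost without replicate 1 of feeder-free day 32 or without the feeder array of day 32. The other Slc36 genes were not called, and of them only Slc36a1, a proton-coupled carrier of small neutral amino acids, was clear of the background, at 11.10 to 11.88.

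**Figure D2:**
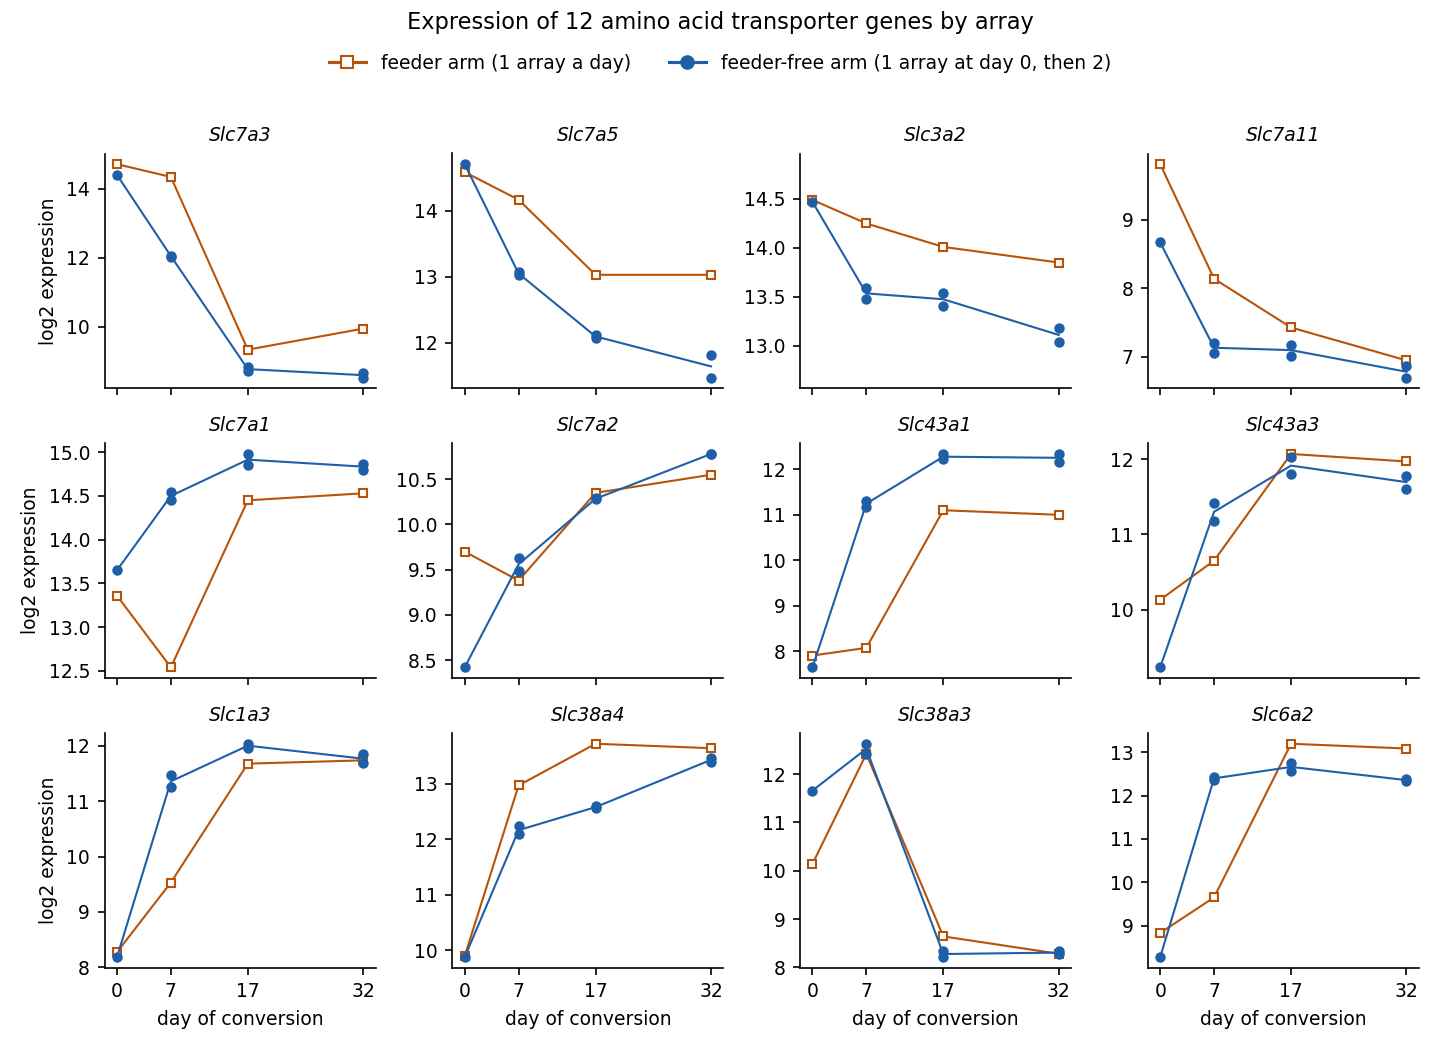
Log2 expression of 12 transporter genes on each array by day of conversion, with open squares for the feeder arm, filled circles for the feeder-free arm and lines through the mean of each day; each panel has its own vertical axis. Slc43a1 and Slc6a2 are high at day 7 in the feeder-free arm while the feeder array is still near its start, and Slc38a3 peaks at day 7 in both arms.

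The first 7 days were tested next. In the feeder-free arm, in a fit that gave each arm and day its own mean, 15 transporter genes were higher and 13 lower at day 7 than at day 0. These 28 genes make 52.8% of the 53, beside 36.9% of all genes called, and the median change was -0.05 both over the 53 and over all genes. Rises of at least 1 were found for Slc6a2 (4.13 ± 0.13), Slc43a1 (3.61 ± 0.13), Slc1a3 (3.17 ± 0.14), Slc38a4 (2.28 ± 0.12), Slc43a3 (2.07 ± 0.15), Slc7a2 (1.14 ± 0.12) and Slc36a4 (1.02 ± 0.13). Falls of that size were found for Slc7a3 (-2.35 ± 0.13), Slc7a7 (-1.75 ± 0.17), Slc7a5 (-1.66 ± 0.14), Slc7a11 (-1.54 ± 0.14) and Slc7a6 (-1.09 ± 0.13). Adjusted p-values of these 12 genes ran from 1.82e-11 for Slc6a2 to 2.49e-05 for Slc36a4. Slc3a2, the heavy chain, also fell (-0.93 ± 0.13, adjusted p = 5.04e-05), and Slc1a4 fell by less (-0.47 ± 0.12, adjusted p = 0.0073). Slc7a1 (0.84 ± 0.13, adjusted p = 9.22e-05), Slc38a3 (0.87 ± 0.13, adjusted p = 0.000115) and Slc38a2 (0.64 ± 0.13, adjusted p = 0.00132) rose.

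Day 0 of this arm is 1 array, so its spread is taken from the pairs of the later days. With additive terms for day and culture, which average the arms, 17 genes passed in place of 28. Slc7a2, Slc7a1 and Slc1a4 then lost their calls, with adjusted p-values of 0.325, 0.762 and 0.061. The 6 measured trophoblast markers, Elf5, Gata3, Hand1, Tfap2c, Plac1 and Cdx2, averaged 12.03 and 12.17 on the feeder-free arrays of day 7, against 9.94 at day 0, and 10.66 on the feeder array of day 7, against 9.85 at day 0. At least 5 of the 6 were above the background bound on every array, and 4 rose and 1 fell at day 7 in the feeder-free arm. Their part in the day 7 values was not tested.

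Over the same 7 days the feeder arm had smaller changes in most of the genes that differed by day 32. Among the 20 genes called between day 32 and day 0, 14 had a smaller change at day 7 against day 0 in the feeder arm. The median size of that change was 0.55 in the feeder arm and 1.08 in the feeder-free arm, beside 0.17 and 0.24 over all genes. The median over all genes was thus also smaller in the feeder arm, and the count of 14 of 20 was not set beside a share of all genes. These genes were chosen on changes that share the day 0 arrays, so the values are a description.

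The difference between the arms was tested as an interaction, the feeder change minus the feeder-free change. It passed for 26 genes, 13 above and 13 below 0, which is 49.1% of the 53 beside 22% of all genes. Several genes that rose by day 32 had smaller rises by day 7 in the feeder arm, with Slc43a1 at -3.43 ± 0.20 (adjusted p = 6.01e-08), Slc6a2 at -3.31 ± 0.20 (adjusted p = 6.01e-08), Slc1a3 at -1.91 ± 0.21 (adjusted p = 1.15e-05) and Slc43a3 at -1.55 ± 0.23 (adjusted p = 0.00016). The cationic carriers Slc7a1 (-1.66 ± 0.19, adjusted p = 2.07e-05) and Slc7a2 (-1.46 ± 0.19, adjusted p = 5.4e-05) also had differences below 0. Their day 7 changes were of opposite sign in the arms, -0.82 and -0.32 in the feeder arm, against 0.84 and 1.14 in the feeder-free arm. Slc7a2 and Slc43a3 lay further apart between the arms at day 0, by 1.28 and 0.9, than at day 7, by -0.18 and -0.65. Slc7a3, Slc7a5 and Slc7a7, which fell by day 32, had smaller falls by day 7 in the feeder arm, with changes of -0.37, -0.42 and -0.58, against -2.35, -1.66 and -1.75 in the feeder-free arm. Their differences were above 0, with Slc7a3 at 1.98 ± 0.19 (adjusted p = 4.86e-06), Slc7a5 at 1.24 ± 0.22 (adjusted p = 0.000854) and Slc7a7 at 1.17 ± 0.26 (adjusted p = 0.00404). Slc3a2 had a smaller difference of 0.68 ± 0.20 (adjusted p = 0.0236), which missed the threshold without replicate 1 of feeder-free day 7. Slc7a11 had a change of -1.67 in the feeder arm and -1.54 in the feeder-free arm, and the difference of -0.13 ± 0.21 did not pass (adjusted p = 0.747).

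Other genes also had day 7 changes that differed between the arms. Slc7a9, the light chain that takes up cystine and cationic amino acids, read 10.46 on the feeder array of day 7 and between 8.08 and 8.52 on the other 10 arrays. That 1 array thus carries its difference of 1.94 ± 0.19 (adjusted p = 4.45e-06). Slc3a1, the heavy chain it is known to pair with, stayed in the background range on all arrays. Slc6a6 (1.45 ± 0.20, adjusted p = 9.64e-05) and Slc38a3 (1.42 ± 0.20, adjusted p = 0.000146) had larger rises in the feeder arm. The change of Slc1a1 was 0.57 there, against -0.80 in the feeder-free arm (difference 1.37 ± 0.22, adjusted p = 0.000439). For Slc38a3 the feeder arm differed from the feeder-free arm by -1.52 on the single arrays of day 0 and by -0.1 at day 7. For Slc1a1 these differences were -1.03 and 0.34. The larger gap of both genes was thus at the start. Slc6a14, a broad carrier of neutral and cationic amino acids, had a difference of 1.28 ± 0.20 (adjusted p = 0.000273) with every array under the background bound. Slc6a9 (-0.84 ± 0.19, adjusted p = 0.0045) and Slc1a4 (-0.69 ± 0.19, adjusted p = 0.0153) had lower changes in the feeder arm, and Slc38a4, which also rose by day 32, had a higher one (0.78 ± 0.19, adjusted p = 0.00829).

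Each change in the feeder arm rests on 2 arrays with no replicate, assumed to vary like the feeder-free pairs. The 14 measured fibroblast markers, collagens among them, averaged 9.99, 9.02, 8.33 and 8.26 at days 0, 7, 17 and 32 in the feeder arm and 8.14 to 8.28 in the feeder-free arm. Above the background bound were 11, 11, 9 and 10 of the 14 in the feeder arm and 9 or 10 in the feeder-free arm. Their part in the differences between the arms at days 0 and 7 was not tested.

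**Figure D3:**
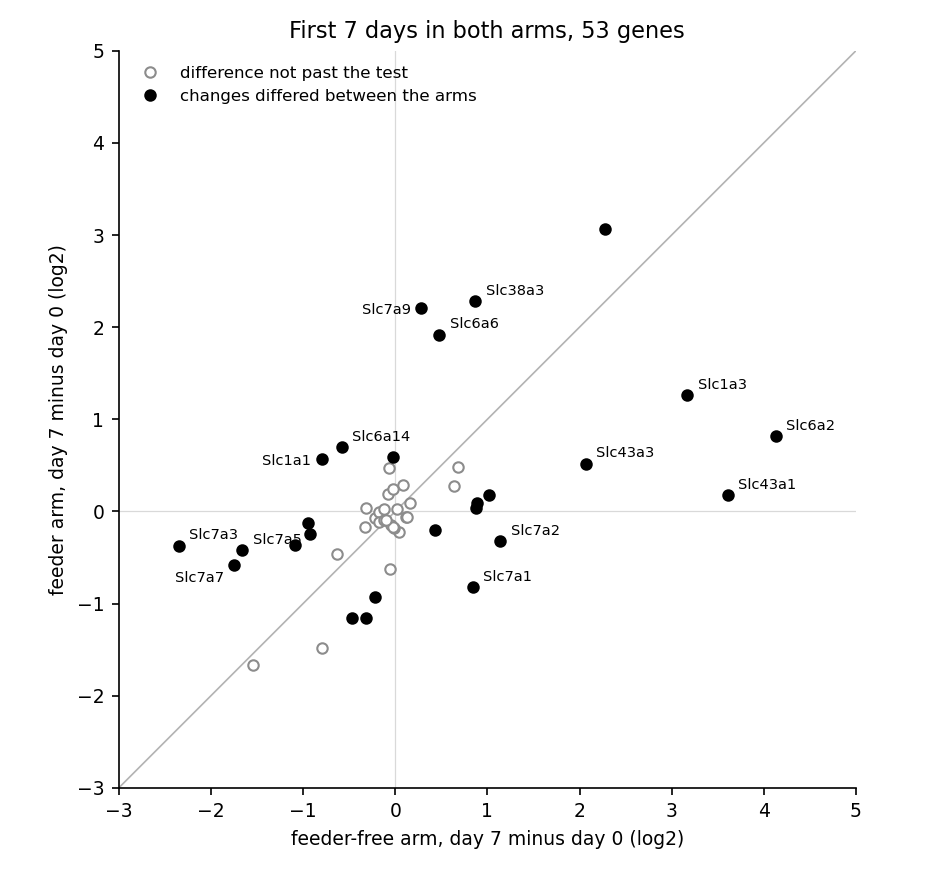
The log2 change at day 7 against day 0 in the feeder arm (vertical) and in the feeder-free arm (horizontal) for each of the 53 genes, with filled points for the 26 genes whose changes differed between the arms and a diagonal where both changes are equal. Slc43a1 and Slc6a2 lie far below the diagonal, and Slc7a9, Slc7a3 and Slc6a6 above it.

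Between day 7 and day 17 the feeder-free arm lost Slc38a3, Slc6a6 and Slc7a8 and more of Slc7a3. At day 17 against day 7, 12 genes were higher and 7 lower, and after a further quantile normalization 10 and 9. The 19 genes make 35.8% of the 53, beside 23.8% of all genes, and the median change over all genes was itself 0.11. Slc38a3 fell by 4.25 after its day 7 peak (-4.25 ± 0.11, adjusted p = 6.24e-12). Slc7a3 fell by a further 3.29 (-3.29 ± 0.10, adjusted p = 4.16e-11), Slc6a6 by 2.37 (-2.37 ± 0.11, adjusted p = 1.48e-09), Slc7a8 by 1.57 (-1.57 ± 0.12, adjusted p = 6.19e-07) and Slc7a5 by 0.96 (-0.96 ± 0.12, adjusted p = 4.6e-05). The only rise of at least 1 was that of Slc43a1 (1.03 ± 0.11, adjusted p = 1.06e-05). Smaller rises included Slc1a1 (0.88 ± 0.12), Slc7a6 (0.75 ± 0.11) and Slc1a4 (0.73 ± 0.10), which had all fallen in this arm by day 7. Slc7a1 (0.42 ± 0.10, adjusted p = 0.00905) and Slc38a4 (0.41 ± 0.10, adjusted p = 0.00899) rose as well, with calls lost without replicate 1 of day 7 or replicate 2 of day 17. With additive terms, 7 genes passed, and Slc43a1 was not among them (adjusted p = 0.0648).

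In this interval the feeder arm had the larger changes in several genes. The day 7 to day 17 change differed between the arms for 17 genes, 11 above and 6 below 0, which is 32.1% of the 53 beside 19.7% of all genes. The change of Slc6a2 was 3.55 in the feeder arm, against 0.27 in the feeder-free arm (difference 3.28 ± 0.18, adjusted p = 5.63e-08). That of Slc43a1 was 3.03, against 1.03 (1.99 ± 0.19, adjusted p = 4.25e-06), that of Slc1a3 was 2.14, against 0.65 (1.5 ± 0.19, adjusted p = 6.56e-05), and that of Slc7a1 was 1.91, against 0.42 (1.5 ± 0.18, adjusted p = 3.29e-05). Slc7a3 had a change of -5 in the feeder arm, against -3.29 (-1.72 ± 0.18, adjusted p = 1.06e-05). Slc7a9 came back to its day 0 level with a change of -2.31, against -0.32 (-1.99 ± 0.17, adjusted p = 2.18e-06). Slc7a8 had a change of -0.29, against -1.57, its feeder array of day 7 being already low (1.28 ± 0.21, adjusted p = 0.000615). Slc1a4 (0.82 ± 0.17, adjusted p = 0.00335) and Slc6a9 (0.65 ± 0.17, adjusted p = 0.0164), low on the feeder array of day 7, had higher changes in the feeder arm. These differences share their day 7 arrays with the ones of the first 7 days, so a high or low day 7 value enters both with opposite sign.

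Between day 17 and day 32 few transporter genes changed. Over the mean of both arms, 2 genes were higher and 2 lower at day 32 than at day 17. The 4 genes make 7.55% of the 53, beside 6.44% of all genes, and none changed by 1 or more. Slc38a4 passed on the mean of arms that differed in sign (0.38 ± 0.09, adjusted p = 0.0175), with a change of -0.09 in the feeder arm and 0.85 in the feeder-free arm, and its call was lost on the arrays of days 17 and 32 alone. Slc7a2 rose (0.35 ± 0.09, adjusted p = 0.0281), a call lost without either feeder-free array of day 32. Slc36a4 fell (-0.54 ± 0.09, adjusted p = 0.00261). Slc7a11 also passed (-0.39 ± 0.10, adjusted p = 0.0259), but it lay under the background bound on all 6 arrays of these days, so the value sets background levels against each other. After quantile normalization or centring on the gene median, 2 genes were higher and 1 lower. With additive terms none of the 53 passed, and without replicate 2 of feeder-free day 32 only 2 did. At an unadjusted p under 0.05 the first fit gave 11 genes.

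The arms were next compared over days 17 and 32. Over days 17 and 32, 12 genes were higher and 10 lower in the feeder arm than in the feeder-free arm. The 22 genes make 41.5% of the 53, beside 39% of all genes, so the share is near the background. Slc6a6 had the widest difference (2.41 ± 0.09, adjusted p = 1.83e-09). Slc7a5 (1.16 ± 0.10, adjusted p = 1.18e-06), its heavy chain Slc3a2 (0.63 ± 0.09, adjusted p = 8.93e-05), Slc7a3 (0.96 ± 0.09, adjusted p = 2.03e-06), Slc7a6 (0.63 ± 0.09, adjusted p = 8.58e-05) and Slc1a5 (0.95 ± 0.10, adjusted p = 4.78e-06) were also higher in the feeder arm. Slc38a4 (0.67 ± 0.09, adjusted p = 3.56e-05), Slc6a2 (0.63 ± 0.09, adjusted p = 8.03e-05) and Slc38a1 (0.30 ± 0.09, adjusted p = 0.0148) were higher too. The Slc38a4 value averages a difference of 1.14 at day 17 and 0.2 at day 32. Lower in the feeder arm were Slc43a1 (-1.22 ± 0.09, adjusted p = 4.1e-07), Slc6a8 (-0.79 ± 0.09, adjusted p = 8.38e-06), the lysosomal glutamine exporter Slc38a7 (-0.58 ± 0.09, adjusted p = 0.000207), Slc7a1 (-0.38 ± 0.09, adjusted p = 0.00362) and Slc1a4 (-0.31 ± 0.09, adjusted p = 0.0111).

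Some of these differences were already there on the single arrays of day 0, and some were not. Slc1a5 differed by 1.22 and Slc6a6 by 1.24 between the arms at day 0, both higher in the feeder arm. Slc7a5, Slc3a2 and Slc38a4 had day 0 differences of -0.12, 0.03 and 0.03. Across all 4 days, 8 genes were higher and 11 lower in the feeder arm on every day, which is 35.8% of the 53, beside 44.6% of all genes with 1 sign throughout.

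**Figure D4:**
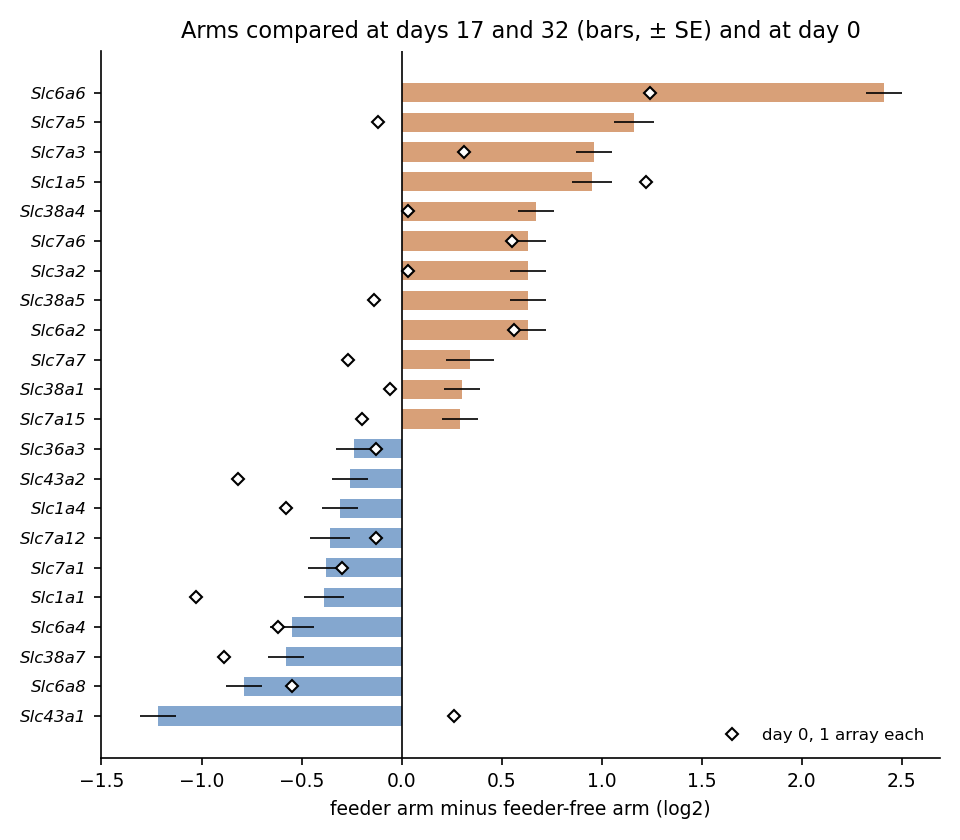
Feeder arm minus feeder-free arm on the log2 scale for the 22 genes that differed over days 17 and 32 (bars, with ± SE), and the same difference at day 0 from 1 array each (diamonds). The bar of Slc6a6 reaches 2.41 and that of Slc43a1 -1.22, and the diamonds of Slc7a5 and Slc3a2 sit near 0.

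Genes that act with these carriers were described by lists chosen with earlier results of these data known, with the median change of all genes being 0.05 at day 32 against day 0. The amino acid response, the ATF4-driven program of amino acid shortage, had 0 of 15 measured genes higher and 9 lower, with a median of -0.93. Over all 14506 genes, 2522 were higher and 1982 lower, 31% in all, and the counts of every list at day 32 stand beside that share. Nupr1, a stress-induced chromatin protein (-2.98 ± 0.16, adjusted p = 2.49e-05), Stc2, a secreted glycoprotein (-2.71 ± 0.33, adjusted p = 0.000663), Ddit4, an inhibitor of mTORC1 (-2.03 ± 0.09, adjusted p = 1.62e-05), and Trib3, a pseudokinase that restrains ATF4 (-1.74 ± 0.23, adjusted p = 0.000964), fell most. Not every gene of the list fell: Atf3 had a change of 1.96 ± 0.72 that did not pass (adjusted p = 0.0701). Atf4 itself was not called (-0.19 ± 0.12, adjusted p = 0.278). Asns, asparagine synthetase, was not called and differed by 0.03 in the feeder arm and -0.13 in the feeder-free arm. Over the first 7 days the list's median change was -1.21 in the feeder arm and -0.37 in the feeder-free arm. In the test of that difference, 7 of 15 genes were below and 0 above 0, beside 22% of all genes called. The list averaged 11.75 on the feeder array of day 0, against 11.11 on the feeder-free array. At day 7 the means were closer, 10.62 in the feeder arm and 10.77 and 10.88 in the feeder-free arm. Trib3 read 11.78, 9.59, 10.36 and 10.06 over the 4 days in the feeder arm, its lowest value there being that of day 7.

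The letters searched in the transporter promoters were also found in 4 of the 13 matched promoters of this list, 30.8%, beside 3.98% of all promoters. The list was drawn up as the ATF4-driven program, so a higher share is no test of the element. The 4 genes are Trib3, Nupr1, Chac1 and Herpud1. At day 32 Chac1 was lower (-0.93 ± 0.20, adjusted p = 0.00808) and Herpud1 was not called (0.12 ± 0.28, adjusted p = 0.805). Of the 4, Trib3 and Nupr1 are shown because they had some of the widest falls of the list, with the match in capitals and on the strand opposite to the gene. A link between the match and the falls was not tested.
Trib3: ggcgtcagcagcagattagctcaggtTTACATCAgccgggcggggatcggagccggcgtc
Nupr1: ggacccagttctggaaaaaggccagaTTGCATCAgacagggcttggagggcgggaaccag
They lie at chr3:161275521-161275580 and chr1:190645923-190645982 of GRCr8, both on the minus strand.

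**Figure D5:**
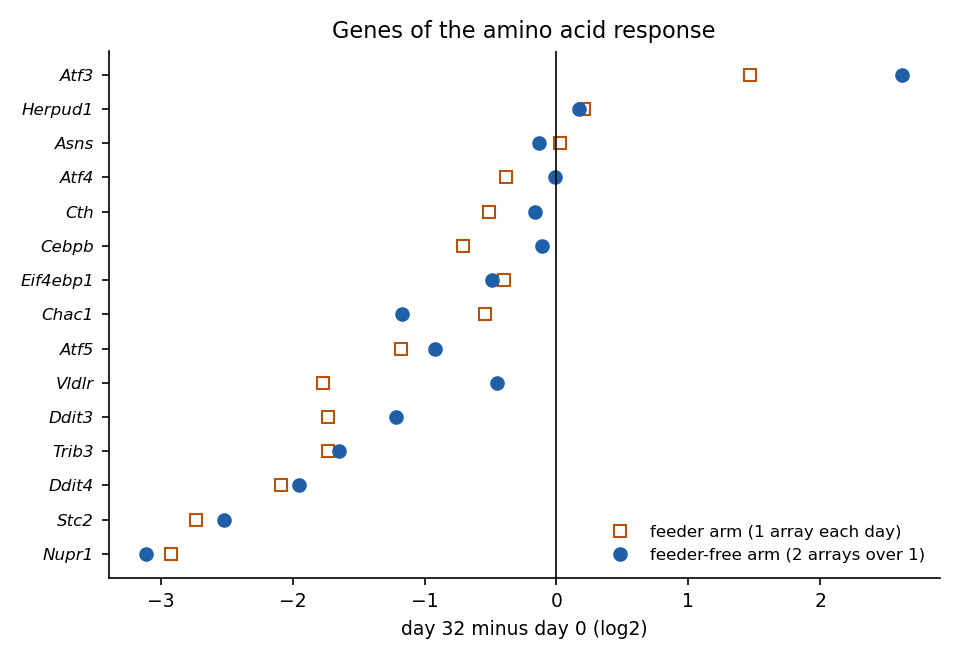
The log2 change at day 32 against day 0 for the 15 measured genes of the amino acid response, with open squares for the feeder arm and filled circles for the feeder-free arm. Nupr1 and Stc2 lie furthest to the left in both arms, and Atf3 is the only gene far to the right of 0.

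The enzyme lists at day 32 against day 0 were as follows, beside 31% of all genes called. Of 18 serine, glycine, threonine and one-carbon enzymes, 0 rose and 8 fell (median -0.31), led by Gcat (-2.03 ± 0.16, adjusted p = 0.000115) and Amt (-1.89 ± 0.28, adjusted p = 0.00152), with Tdh, the threonine dehydrogenase known from mouse stem cells, at -1.61 ± 0.42 (adjusted p = 0.0184). Of 17 enzymes of glutamine, glutamate, proline and arginine, 1 rose and 8 fell (median -0.34). The widest were Ass1, which makes the precursor of arginine (-3.78 ± 0.55, adjusted p = 0.00134), and Sms, spermine synthase (-3.42 ± 0.22, adjusted p = 4.28e-05). Of 9 branched-chain enzymes, 0 rose and 4 fell (median -0.43), with Mccc1 (-2.07 ± 0.24, adjusted p = 0.000497) and Ivd (-1.71 ± 0.23, adjusted p = 0.00103), both of leucine breakdown, at the front. Aminoacyl-tRNA synthetases had 2 of 19 higher and 7 lower (median -0.21), and the amino acid sensing genes of mTORC1 had 3 of 23 higher and 5 lower (median -0.14), a share near that of all genes.

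Glutathione genes were mixed, with 3 of 13 higher and 3 lower (median -0.11). Ggt1, which recovers cysteine from glutathione outside the cell, rose (1.85 ± 0.27, adjusted p = 0.00133), as did Gclc, the catalytic subunit of the first enzyme of synthesis (1.23 ± 0.11, adjusted p = 0.000209), while its partner Gclm fell (-0.97 ± 0.14, adjusted p = 0.00134). The list for carriers outside the 7 families, which also holds Cltrn and Clptm1l, had 4 of 17 genes higher and 2 lower (median 0.06). Clptm1l was among the 4 (0.36 ± 0.11, adjusted p = 0.035). The peptide carrier Slc15a1 changed by -3.17 ± 0.46 (adjusted p = 0.00137) and its relative Slc15a2 by 1.85 ± 0.62 (adjusted p = 0.0499). Accessory and regulatory proteins of the carriers had 3 of 12 higher and 1 lower (median 0.21). The shares called in both of these lists were near the 31% of all genes. Sgk1, a kinase that keeps carriers at the cell surface, was the one that fell (-1.37 ± 0.35, adjusted p = 0.0174), and Mfsd12, a lysosomal cysteine carrier, rose by 2.18 ± 0.37 (adjusted p = 0.0028).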

How the data were processed

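Total RNA was hybridised to 11 Affymetrix Rat Gene 1.0 ST arrays. The deposited table holds log2 expression values, 1 per row and array, made by the authors. The tool was RMA, per the submitters' processing notes, with no version or option named. The median of each of the 11 columns is 8.97 although the quartiles are not equal, and how this median arose is unknown. RMA draws low values together, so changes of dim genes are understated. Of 29214 rows, 15310 had 1 gene symbol in the platform annotation, 323 several and 13581 none. By gene identifier, 15279 matched RefSeq GRCr8, and 0 symbols differed. The brightest row stood for each of 527 genes with several rows, leaving 14506 genes, with no filter on dim genes.

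The labels gave each array its culture and day. limma 3.58.1 in R 4.3.3 (lmFit, eBayes) was run on all 11 arrays: with terms for day and culture (6 residual degrees of freedom) for day 32 against day 0, and with 8 groups of culture by day (3 residual degrees of freedom, from the feeder-free pairs alone) for all other comparisons. Adjusted p-values are Benjamini-Hochberg values over 14506 genes, with a threshold of 0.05. The number of arrays limits the precision. The correlation of same-numbered feeder-free arrays' deviations between days was -0.2 to 0.03, so replicate numbers were not taken as pairs.

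The transporter genes and all gene lists were chosen with earlier results of these data known. Every transporter gene is counted by family. Per-array values and statistics are given for genes called with a change of at least 1, at most 12 per comparison, and always for Slc7a5, Slc3a2, Slc7a1, Slc7a3, Slc7a11, Slc1a4, Slc1a5, Slc38a1, Slc38a2, Slc38a3, Slc38a4 and Slc6a9, with at most 4 called genes per other list. Other genes named with values, such as Slc7a6, Slc38a9 or Asns, were chosen after their values were seen. Receptor genes with Or symbols were added to the Olr and vomeronasal names of the background set after the table was seen. Simulated data served to test the calculation. As alternatives, the fits were repeated without the dimmest 25% of genes, with gene means over rows, all rows, quantile normalization, centring, limma's eBayes with trend and robust, a replicate block, other covariates or arrays, and leaving out each array. Promoters came from RefSeq GRCr8. Figures were drawn with matplotlib 3.10.9.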

Additional observations from a re-analysis of the deposited data

Results flagged for a closer look

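The day 0 to day 7 change differed between the arms, feeder minus feeder-free, for 14 of the 53 transporter genes, with a log2 size of 1 or more in the limma interaction test. Over all genes, 11.1% were called at that size. The difference was -3.43 for Slc43a1, -3.31 for Slc6a2, -1.91 for Slc1a3, -1.66 for Slc7a1, -1.55 for Slc43a3 and -1.46 for Slc7a2. It was 1.17 for Slc7a7, 1.24 for Slc7a5, 1.28 for Slc6a14, 1.37 for Slc1a1, 1.42 for Slc38a3, 1.45 for Slc6a6, 1.94 for Slc7a9 and 1.98 for Slc7a3. Slc6a14 lay under the background bound on all arrays. For Slc38a3, Slc1a1, Slc7a2 and Slc43a3 the arms lay further apart on the single arrays of day 0 than at day 7.

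For the day 7 to day 17 change, 7 of the 53 genes differed by that much, beside 8.71% of all genes. The difference was -1.99 for Slc7a9, -1.72 for Slc7a3, 1.28 for Slc7a8, 1.5 for Slc1a3, 1.5 for Slc7a1, 1.99 for Slc43a1 and 3.28 for Slc6a2. All but Slc7a8 are among the 14 genes above, with the opposite sign, and both tests share the day 7 arrays, 1 of them in the feeder arm.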

How the results depend on the processing

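No transporter gene called in a comparison reversed its sign under any alternative that gave a value. The number of transporter genes called stayed within 1.5 times the reported one under all alternatives run for day 32 against day 0 (17 to 27 when single arrays were left out, 27 without the feeder array of day 7), for both differences between arms in change (24 to 27 and 15 to 17) and for the arms over days 17 and 32 (18 to 22). For feeder-free day 7 against day 0 it was 17 in place of 28 with additive terms, which average the arms, and 27 to 30 without single arrays. For feeder-free day 17 against day 7 it was 7 in place of 19 with additive terms and 13 to 19 without single arrays. For day 32 against day 17 it was 1 with all rows, 7 with trend and robust, 0 with additive terms and 2 to 5 without single arrays, in place of 4. The cause of these shifts was not tested. With the replicate block, which the numbers do not bear out as pairs, the counts were 19, 26, 25, 16, 17, 5 and 21 in the order of the report. Called under every alternative were 15 of 20, 16 of 28, 21 of 26, 7 of 19, 12 of 17, 0 of 4 and 17 of 22 genes. Over all genes, the count for day 32 against day 0 was 2536 without the feeder-free array of day 0, in place of 4504. For feeder-free day 7 against day 0 it was 2322 in place of 5348 with additive terms. For day 17 against day 7 it was 1850 in place of 3458 with additive terms and 2281 without replicate 1 of feeder-free day 7. For day 32 against day 17 it was 611 with all rows and 0 with additive terms, in place of 934. For the arms over days 17 and 32 it was 9187 in place of 5660 with all rows, where more rows are tested. A comparison that needs a lone array, such as the feeder-free array of day 0, gives no value without it. Feeder arrays have no replicate, the cells are 1 line, and genes near the background bound have understated changes.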
